A study of Mus musculus with 12 samples.

Results

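β-Catenin is made continuously in most cells and is kept scarce by a cytoplasmic machine, the destruction complex. In this complex the scaffold proteins AXIN1, AXIN2, APC and AMER1 hold β-catenin next to casein kinase 1α and to GSK3α or GSK3β, which phosphorylate its N terminus in turn. The phosphorylated stretch is then recognised by the F-box proteins BTRC or FBXW11, the substrate-binding parts of a ubiquitin ligase, and β-catenin is degraded by the proteasome. Inhibition of GSK3 or loss of a scaffold lets β-catenin accumulate and enter the nucleus, where it joins TCF and LEF factors. *Axin2* is a classical target gene of that step, so that the complex is also regulated by its own substrate.

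The 10 genes described here are those that encode β-catenin (*Ctnnb1*) and the core parts of its destruction complex (*Apc*, *Axin1*, *Axin2*, *Gsk3a*, *Gsk3b*, *Csnk1a1*, *Btrc*, *Fbxw11* and *Amer1*). They were listed by name, and all 10 were found among the 41444 genes of the table and were among the 11536 genes tested. RNA-seq had been performed on pre-B cells from the bone marrow of *Ctnnb1* fl/fl mice that were transformed with *BCR*–*ABL1*, which gives a model of B cell acute lymphoblastic leukemia (B-ALL). Both groups compared here carried the ERT2 vector without Cre, so that the floxed β-catenin alleles stayed intact, and both received the tamoxifen metabolite 4-OHT at 1 µM for 2 days. The control group (n = 3) had no further treatment, and the LY2090314 group (n = 3) received this GSK3 inhibitor at 40 nM for 1 day according to the labels. The text of the study gives a shorter exposure for the same experiment. The Cre-ERT2 groups are not analysed here, because 6 columns of the table carry names that combine Cre and LY and could not be assigned to a group, so whether a change needed β-catenin cannot be said.

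All values are regularized log2 (rlog) values as deposited, on which a difference of 1 is a doubling, and which understate the differences of genes with few reads. Read counts are not part of the table, and library depth is therefore unknown. Column names of treated samples 1 and 2 begin with the same number and differ in a letter, A or B, and later digits. What this number stands for is not given in the sources used here. Across genes these 2 samples differed from each other with an SD of 0.186, whereas each differed from treated sample 3 with an SD of 0.253. Pairs of control samples differed with SDs of 0.185, 0.222 and 0.239. The study describes the samples of a group as biological replicates from mice, but the labels tie no column to a mouse or culture, so p-values measure the spread between these samples, which may in part be technical. As a check of the cell type, all 8 B lineage markers were well expressed, with values between 11.38 and 14.47. None of 16 markers of T, myeloid, erythroid or stromal cells reached a mean of 3, and *Mpo*, *Elane*, *Hba-a1* and *Col1a2* were listed at 0. B lineage markers moved with the treatment. Of the 8, 7 fell, the summed level was 104.4 to 104.8 in control and 98.4 to 99.2 in treated samples, and the part of this in the results below was not tested. In bulk RNA, fewer cells of a type and less RNA per cell cannot be told apart.

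The substrate site that the complex acts on is shown first, because all kinases and both F-box proteins in this set converge on it. It lies in exon 3 of *Ctnnb1*, at chr9:120950593-120950652 of GRCm38 on the plus strand, and holds codons 29 to 48. Capitals mark codons 33, 37, 41 and 45. Casein kinase 1α phosphorylates the residue of the last of these, and GSK3 then phosphorylates those of the others.
Ctnnb1 degron: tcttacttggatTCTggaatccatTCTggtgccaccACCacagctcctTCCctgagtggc

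In cells treated with LY2090314, *Axin2* transcripts rose 3.17-fold and *Ctnnb1* transcripts fell to a level 1.27-fold lower. None of the other 8 genes passed the threshold, and their log2 differences lay between −0.024 and 0.13 (threshold of 0.05 on the adjusted p, limma with Benjamini-Hochberg adjustment over all genes tested). Across all genes tested 50.1% passed, against 2 of these 10. A log2 difference of at least 1 together with the threshold was reached by 6.01% of all genes and by *Axin2* alone among the members. In the upward direction 1 member was called, where the share of all genes was 24.8%, and in the downward direction 1, where it was 25.3%. The groups did not overlap in 3 members, *Ctnnb1*, *Axin2* and *Gsk3b*, against 58.6% of all genes. The median difference of the 10 genes was 0.034 on the log2 scale and that of all genes tested 0.012. The median size of the difference, regardless of direction, was 0.042 for the 10 genes and 0.24 for all genes.

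**Figure D1:**
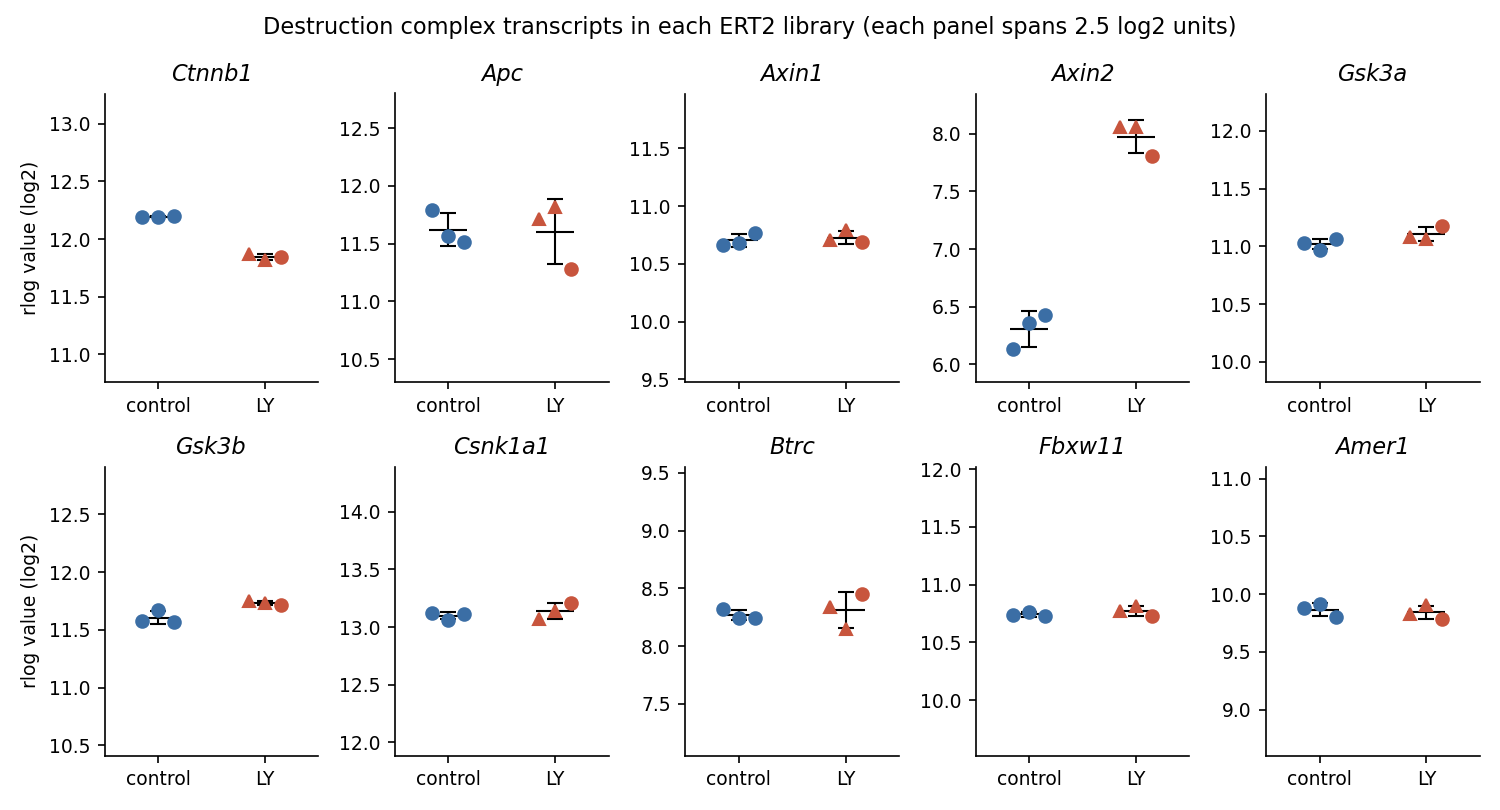
rlog value (log2) of each destruction complex transcript in the 3 control (blue) and the 3 LY2090314-treated (red) ERT2 samples, with the mean and SD as black bars. Triangles mark the treated samples 1 and 2, whose column names begin with the same number. Every panel spans the same range on its axis, so that the rise of *Axin2* from 6.31 to 7.97 and the fall of *Ctnnb1* from 12.19 to 11.85 can be compared with the other 8 panels, of which only *Gsk3b* has groups that do not overlap.

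*Ctnnb1* (ENSMUSG00000006932, chromosome 9, 120929216 to 120960507, plus strand) encodes the substrate itself. Its rlog values were 12.19, 12.19 and 12.20 in control samples and 11.87, 11.82 and 11.84 in treated samples. All treated samples lay below all control samples, and the spread within both groups was small, with SDs of 0.0042 and 0.025 (n = 3 each). The log2 difference was −0.35 (95% interval −0.44 to −0.25, adjusted p = 0.00030, limma), so that the level fell by 21.4%. Inhibition of GSK3 acts on β-catenin protein, which was not measured here. The difference of *Ctnnb1* was of ordinary size for this experiment, larger than that of 65.1% of the genes tested. The 3 genes whose values ran closest to those of *Ctnnb1* after centring were *Hnrnpf*, *Pip4k2b* and *Nol9*, with root mean square differences of 0.014, 0.015 and 0.015 over the 6 samples. For *Ctnnb1* the exact permutation test, two-sided, stood at p = 0.1, and groups of 3 cannot go lower.

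Among the scaffolds, *Axin2* (ENSMUSG00000000142, chromosome 11, 108920349 to 108950783, plus strand) was the one that rose. It had rlog values of 6.14, 6.36 and 6.43 in control samples and of 8.06, 8.06 and 7.81 in treated samples. The lowest treated sample was well above the highest control sample. Means were 6.31 ± 0.15 and 7.97 ± 0.14 (SD, n = 3 each), with a log2 difference of 1.67 (95% interval 1.40 to 1.93, adjusted p = 1.5e-05, limma; exact permutation p = 0.1, two-sided). By size of the rise *Axin2* came at rank 185, and the 3.17-fold rise may be understated, since *Axin2* was the least expressed member and rlog values of such genes are pulled together. *Scml4*, *Rgs8* and *Tent5a* had the most similar values after centring, with root mean square differences of 0.083, 0.089 and 0.11 from *Axin2* over the 6 samples. Their log2 differences were 1.77, 1.68 and 1.65, which follows from how these genes were chosen.

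*Axin1* (ENSMUSG00000024182, chromosome 17, 26138688 to 26195811), the constitutive scaffold of the complex, gave 10.66, 10.68 and 10.77 in control samples and 10.71, 10.79 and 10.69 in treated samples. The groups overlapped, and the difference of 0.024 had a 95% interval from −0.098 to 0.15 (adjusted p = 0.73, limma). *Amer1* (ENSMUSG00000050332, chromosome X, 95420318 to 95444872), which tethers APC at the membrane, was as even, with 9.88, 9.91 and 9.81 in control and 9.83, 9.91 and 9.79 in treated samples. Its difference was −0.024 (95% interval −0.15 to 0.11, adjusted p = 0.75, limma).

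*Apc* (ENSMUSG00000005871, chromosome 18, 34220924 to 34322552), the large scaffold that is lost in most colon cancers, was the most variable member between samples of a group. Control samples were at 11.79, 11.57 and 11.51, and treated samples at 11.71, 11.82 and 11.28. Treated sample 3 was the lowest of all 6. Treated samples 1 and 2, whose column names begin with the same number, were among the 3 highest. The SD within groups was 0.23, larger than in 91.7% of the genes tested, so that the difference of −0.018 had a wide 95% interval, from −0.34 to 0.30 (adjusted p = 0.93, limma). Without treated sample 3 the difference was 0.14 and did not pass either (adjusted p = 0.20, limma). With all 6 samples, any difference of *Apc* between −0.34 and 0.30 is compatible with the values, and no limit of detection was computed.

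**Figure D2:**
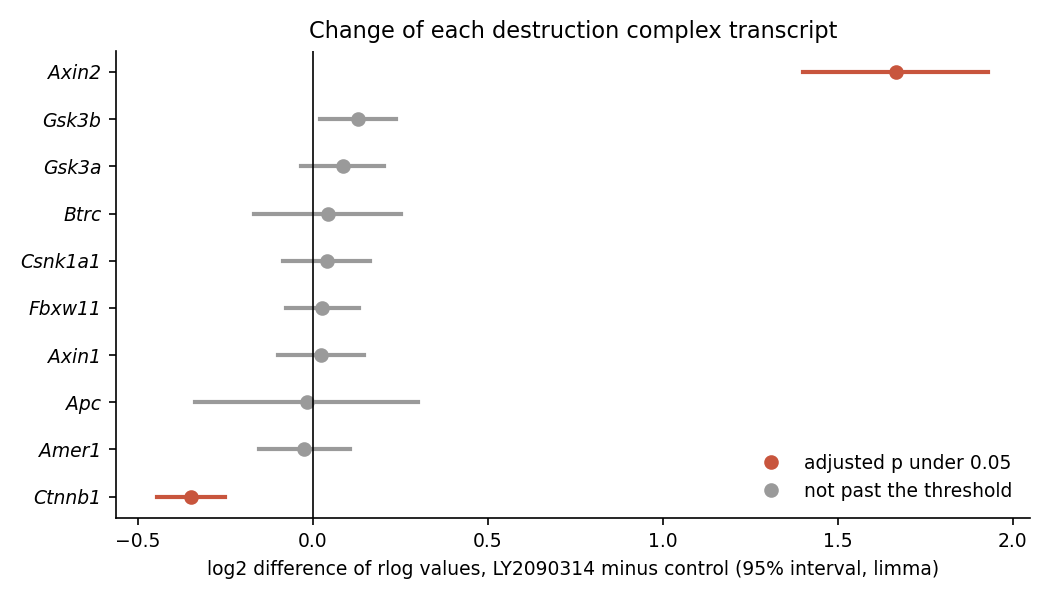
Log2 difference of rlog values between LY2090314-treated and control samples for the 10 destruction complex transcripts, as points with 95% intervals from limma, in red for an adjusted p under 0.05. *Axin2* (1.67) and *Ctnnb1* (−0.35) are past the threshold, the interval of *Gsk3b* lies just above 0, and that of *Apc* is the widest, from −0.34 to 0.30.

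The kinases of the complex include the direct targets of the drug. *Gsk3b* (ENSMUSG00000022812, chromosome 16, 38089001 to 38246084) had values of 11.58, 11.67 and 11.57 in control samples and of 11.75, 11.74 and 11.72 in treated samples. The groups did not overlap, but the log2 difference of 0.13 (95% interval 0.021 to 0.24) fell just short of the threshold, with an adjusted p of 0.051 (limma). *Gsk3b* passed without treated sample 3 (adjusted p = 0.044, limma), and over all alternatives its adjusted p ranged from 0.044 to 0.14. *Gsk3a* (ENSMUSG00000057177, chromosome 7, 25228258 to 25237851), which encodes the other GSK3 isoform, was at 11.03, 10.97 and 11.06 without and at 11.08, 11.06 and 11.18 with LY2090314. The highest control sample exceeded the lowest treated sample by a narrow margin, and the difference was 0.085 (95% interval −0.033 to 0.20, adjusted p = 0.20, limma). *Csnk1a1* (ENSMUSG00000024576, chromosome 18, 61555274 to 61590061) encodes casein kinase 1α, which primes β-catenin for GSK3. Its values were 13.12, 13.06 and 13.11 in control and 13.07, 13.14 and 13.21 in treated samples, a difference of 0.040 (95% interval −0.084 to 0.16, adjusted p = 0.56, limma).

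The 2 F-box genes did not pass either. *Fbxw11* (ENSMUSG00000020271, chromosome 11, 32642724 to 32746816) gave 10.73, 10.76 and 10.73 in control samples and 10.77, 10.81 and 10.73 in treated samples, with a difference of 0.027 (95% interval −0.078 to 0.13, adjusted p = 0.65, limma). *Btrc* (ENSMUSG00000025217, chromosome 19, 45363734 to 45530013) was at 8.32, 8.25 and 8.24 in control samples and less uniform in treated samples, at 8.34, 8.15 and 8.45. The treated samples lay on both sides of the controls, and the difference was 0.043 (95% interval −0.17 to 0.25, adjusted p = 0.72, limma).

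Since 3 of these functions are each shared by a pair of paralogs, the log2 difference between paralogs was taken within each sample and compared between the groups. *Axin2* minus *Axin1* was −4.52, −4.32 and −4.34 in control samples and −2.65, −2.73 and −2.88 in treated samples. The balance of the Axin genes thus moved by 1.64 towards *Axin2*, with no overlap between the groups (exact two-sided permutation p = 0.1, the smallest possible, and 0.3 after Benjamini-Hochberg adjustment over the 3 pairs). *Gsk3b* minus *Gsk3a* was 0.58 ± 0.10 in control and 0.63 ± 0.076 in treated samples (SD, n = 3 each), a shift of 0.043 with overlapping groups (exact permutation p = 0.7). *Fbxw11* minus *Btrc* was 2.47 ± 0.055 and 2.45 ± 0.19 (SD, n = 3 each), a shift of −0.016 with overlapping groups (exact permutation p = 1). With 3 samples against 3 no pair could pass the threshold in this test, and the 2 small shifts do not show that the paralogs respond alike.

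**Figure D3:**
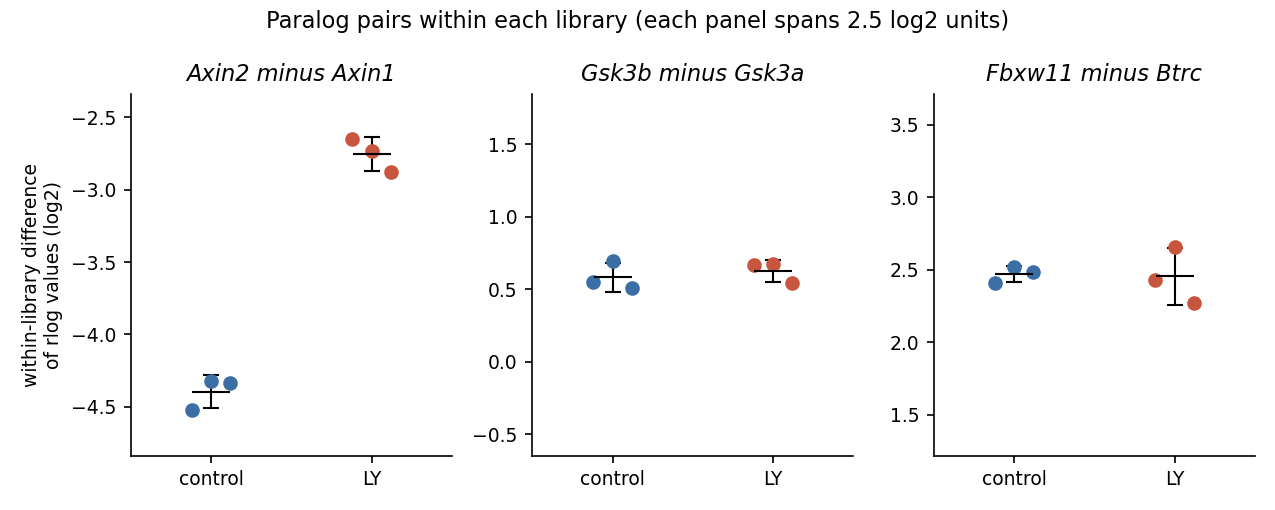
Log2 difference of rlog values between 2 paralogs within each sample, for control (blue) and LY2090314-treated (red) samples, with the mean and SD as black bars and the same span on each axis. The *Axin2* to *Axin1* balance goes from −4.39 to −2.75, whereas the points of both groups overlap for the GSK3 pair and for the F-box pair.

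Levels of different genes were compared per length, as the rlog value minus the log2 of the length in kilobases of the longest coding transcript in GENCODE vM21. On this scale the control samples ranged from 11.07 ± 0.031 for *Csnk1a1* to 4.22 ± 0.15 for *Axin2* (SD, n = 3 each). *Csnk1a1* was followed by *Ctnnb1* (10.34), *Gsk3a* (9.85), *Axin1* (8.79), *Fbxw11* (8.73), *Gsk3b* (8.55), *Apc* (7.94), *Amer1* (6.78), *Btrc* (6.67) and *Axin2*. The neighbours *Axin1* and *Fbxw11* and the neighbours *Amer1* and *Btrc* did not differ beyond the spread of the samples. With LY2090314 the order of means was the same, the level of *Ctnnb1* (9.99) then overlapped that of *Gsk3a* (9.93), and *Axin2* reached 5.88, still below *Btrc* (6.71). The upper part of the order depends on which transcript length is used. With the length of the transcript with the longest coding sequence, *Gsk3b* took rank 2 at 10.80 in control samples. *Apc*, *Amer1*, *Btrc* and *Axin2* held ranks 7 to 10 in control samples with each of the 3 lengths tried. With the length of all exons together, *Ctnnb1* came before *Csnk1a1* in control samples (9.82 and 9.71), and *Axin2* in treated samples (5.51) was above *Btrc* (4.23).

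**Figure D4:**
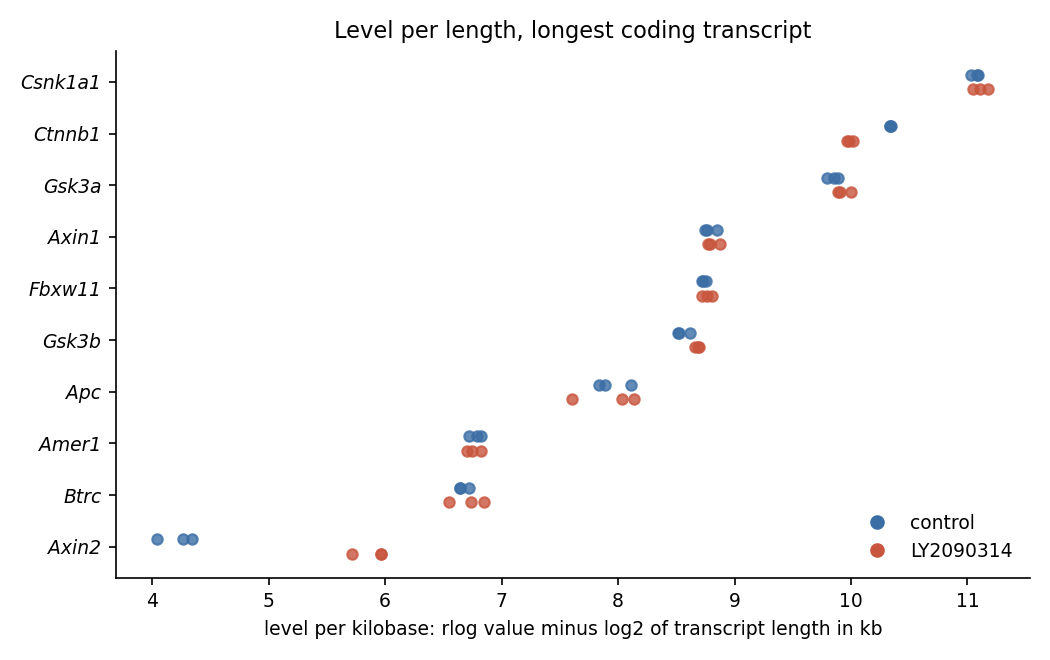
Level per kilobase (rlog value minus log2 of the length of the longest coding transcript in kb) of the 10 destruction complex genes, ordered by the control mean, with 1 point for each control (blue) and treated (red) sample. *Csnk1a1* is at the top near 11.07 and *Axin2* at the bottom, where it moves from 4.22 to 5.88 with LY2090314.

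On the linear scale per length, *Axin2* made up 3.71%, 4.24% and 4.20% of the summed *Axin1* and *Axin2* level in control samples. In treated samples its share was 12.4%, 11.8% and 10.8%. *Axin1* therefore remained the more abundant Axin transcript in each of the 6 samples, with a mean *Axin2* share of 4.05% ± 0.30 without and 11.6% ± 0.83 with LY2090314 (SD, n = 3 each). With the length of all exons these means were 3.20% and 9.36%. *Fbxw11* made up 80.7% ± 0.60 of the F-box pair in control and 80.5% ± 2.1 in treated samples (SD, n = 3 each), and with the length of all exons these means were 95.6% and 95.5%. For the GSK3 pair the more abundant isoform depends on the length used. With the longest coding transcript *Gsk3b* made up 28.5%, 30.6% and 27.9% of the pair in control samples and 30.2%, 30.3% and 28.4% in treated samples. With the transcript of the longest coding sequence its mean share was 65.9% and 66.6%.

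The promoters of the members that moved are given because *Axin2* is a known target of β-catenin and *Ctnnb1* moved the other way. RefSeq promoter windows (GRCm38.p6) matched 5 of the 10 genes, *Ctnnb1*, *Axin2*, *Gsk3a*, *Gsk3b* and *Fbxw11*. The 250 bases before the start were searched on both strands for the core of the TCF and LEF motif, as CTTTGNN with A or T in both positions written N. Such a match was present in 14.8% of 32851 windows. Among the 5 genes it was found in *Gsk3a* alone, 158 bases before the start. No match in *Axin2* or *Ctnnb1* says only that these letters are not in this window. The window of *Axin2* (chr11:108920099-108920348, plus strand) and the first of 2 windows of *Ctnnb1* (chr9:120933150-120933399, plus strand) read as follows, with no capitals since neither holds a match.
Axin2 promoter: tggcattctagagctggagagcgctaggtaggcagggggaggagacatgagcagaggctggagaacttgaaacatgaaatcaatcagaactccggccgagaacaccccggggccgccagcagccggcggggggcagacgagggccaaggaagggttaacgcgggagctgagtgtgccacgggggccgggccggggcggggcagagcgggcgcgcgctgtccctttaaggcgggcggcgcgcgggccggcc
Ctnnb1 promoter: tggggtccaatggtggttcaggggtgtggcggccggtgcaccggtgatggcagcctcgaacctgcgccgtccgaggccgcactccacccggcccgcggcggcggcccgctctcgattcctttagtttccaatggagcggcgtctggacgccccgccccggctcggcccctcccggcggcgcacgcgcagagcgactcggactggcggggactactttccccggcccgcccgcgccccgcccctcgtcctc
The dinucleotide CG occurs 24 times in the former and 35 times in the latter, against a median of 6 over all windows.

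Reads that fit more than 1 gene could affect these values. Of the distinct stretches of 31 bases, the default word length of Salmon, in the transcripts of a member, none occurs in transcripts of another gene for *Axin1* and *Fbxw11*. The share was 2.71% for *Axin2*, all with the antisense gene *Gm11670*, which was listed at 0 in all 6 samples. It was 13.2% for *Ctnnb1*, all with *Ulk4* on the other strand, whose rlog values lay between 1.95 and 2.22. The share was highest for *Gsk3a*, 30.3%, mostly with the antisense gene *9130221H12Rik*, whose values lay between 8.06 and 8.21 against 10.97 to 11.18 for *Gsk3a*. An exon of *Btrc* overlaps the pseudogene *Gm6807* on the other strand (6.21 to 7.08, against 8.15 to 8.45 for *Btrc*). The microRNA gene *Mir7090*, which lies within *Ctnnb1* exons, was not analysed here. Whether reads were counted by strand is not given in the sources used here.

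Around the core, 40 other genes of the degradation pathway in 7 lists were examined. Of the 35 that were tested, 13 rose, 6 fell and 16 did not pass the threshold, so that 54.3% passed against 50.1% of all genes. Their median difference was 0.055 and the median size of the difference 0.26 on the log2 scale, against 0.012 and 0.24 for all genes. The lists are described in turn by their counts. Across all genes tested 24.8% rose and 25.3% fell past the threshold, and the groups did not overlap in 58.6%.

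**Figure D5:**
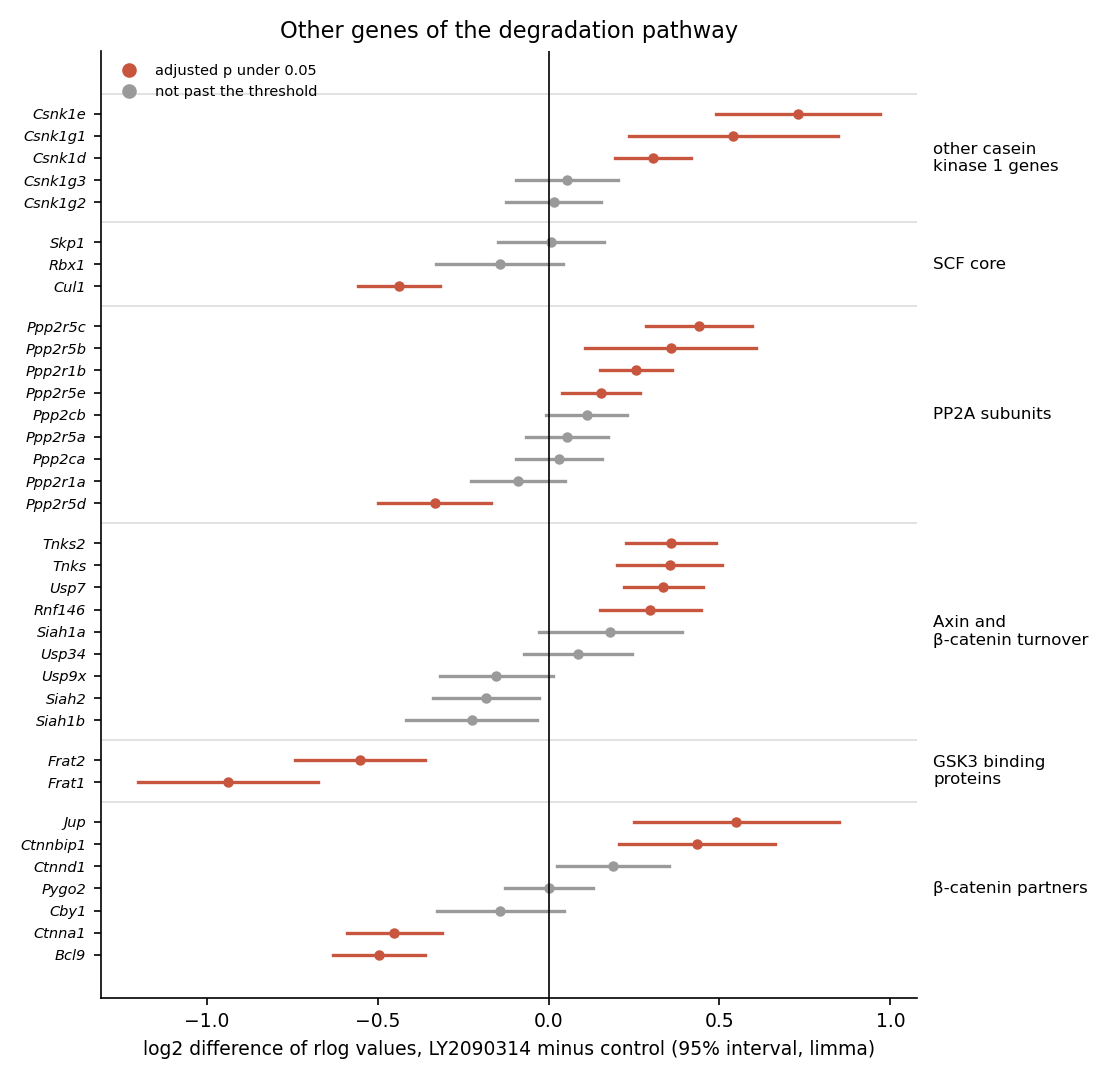
Log2 difference of rlog values between LY2090314-treated and control samples for the 35 tested genes of the wider pathway, grouped by list, as points with 95% intervals from limma and in red for an adjusted p under 0.05. *Frat1* (−0.94) and *Frat2* (−0.55) are the lowest in their list of 2. Of 5 further casein kinase 1 genes, 3 are past the threshold, up to 0.73 for *Csnk1e*, against 50.1% of all genes tested.

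Both FRAT genes fell past the threshold, with groups that did not overlap. The shares over all genes tested were 25.3% for such a fall and 58.6% for no overlap. FRAT proteins bind GSK3 and take it away from Axin, so they counteract the complex. *Frat1* had rlog values of 5.16, 5.44 and 5.12 in control samples and of 4.19, 4.30 and 4.42 in treated samples, with no overlap. This was a fall by 0.94 on the log2 scale (95% interval −1.20 to −0.67, adjusted p = 0.00031, limma). The mean of *Frat1* was above that of only 11.4% of the genes tested, and *Frat1* was not tested with a limit of 5. *Frat2* went from 7.72, 7.80 and 7.88 to 7.21, 7.32 and 7.21, a difference of −0.55 (95% interval −0.74 to −0.36, adjusted p = 0.000915, limma).

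Of 5 further casein kinase 1 genes, 3 rose and 2 did not pass, with a median difference of 0.31. Across all genes tested 50.1% passed and 24.8% rose past the threshold. *Csnk1e*, whose product is best known from the circadian clock and from phosphorylation of Dishevelled, rose from 6.27, 6.32 and 6.52 to 7.05, 7.22 and 7.03, by 0.73 (adjusted p = 0.00074, limma). *Csnk1d*, its close paralog, rose by 0.31 from a mean of 11.67 to 11.98 (adjusted p = 0.0012, limma). *Csnk1g1* rose by 0.54 (adjusted p = 0.010, limma), but its treated samples were far apart, at 10.67, 10.37 and 10.09. *Csnk1g2* and *Csnk1g3* differed by 0.015 and 0.054. *Csnk1a1*, the member of this family in the complex, differed by 0.040, and the difference between it and these 5 genes was not tested.

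Of the 3 genes for the core of the ubiquitin ligase, *Cul1*, the cullin scaffold, fell from 11.32, 11.34 and 11.33 to 10.97, 10.90 and 10.81. The groups did not overlap, and the difference was −0.44 (95% interval −0.56 to −0.32, adjusted p = 0.00027, limma). *Skp1*, the adaptor that holds F-box proteins, differed by 0.0060 (adjusted p = 0.95, limma), and *Rbx1*, the RING subunit, by −0.14 (adjusted p = 0.18, limma). CUL1 serves many F-box proteins besides BTRC and FBXW11.

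Genes that control the stability of Axin and β-catenin were tested in 9 cases, of which 4 rose and none fell past the threshold. Thus 44.4% of this list passed, against 50.1% of all genes tested, of which 24.8% rose and 25.3% fell. The tankyrase genes *Tnks* and *Tnks2*, whose products mark Axin for degradation, rose by 0.35 and 0.36 (adjusted p from limma of 0.0029 and 0.0013). *Rnf146*, which encodes the ubiquitin ligase that reads this mark, rose by 0.30 (adjusted p = 0.0056, limma). *Usp7*, a deubiquitinase gene, rose by 0.34 (adjusted p = 0.00093, limma). For each of these 4 genes the groups did not overlap, as was the case for 58.6% of all genes tested. The ubiquitin ligase genes *Siah1b* and *Siah2* had differences of −0.23 and −0.18 with no overlap and did not pass (adjusted p from limma of 0.052 and 0.051). With median centring both passed (adjusted p of 0.032 and 0.030, limma).

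PP2A is a phosphatase that removes phosphate from parts of the complex and is held there by its B56 subunits. Of its 9 genes, 4 rose, 1 fell and 4 did not pass, so that 55.6% passed against 50.1% of all genes tested. The catalytic subunit genes *Ppp2ca* and *Ppp2cb* were among those that did not, with differences of 0.031 and 0.11. Within the B56 genes, *Ppp2r5c* rose by 0.44 (adjusted p = 0.0010, limma) and *Ppp2r5d* fell by 0.33 (adjusted p = 0.0056, limma). *Ppp2r1b*, a scaffold subunit gene, rose by 0.26 (adjusted p = 0.0023, limma). *Ppp2r5b* (0.36) and *Ppp2r5e* (0.15) passed as well (adjusted p from limma of 0.026 and 0.032), but each lost the call in 5 of the 6 fits without 1 sample, and 3 PP2A genes then passed without control sample 1, control sample 2, treated sample 1 or treated sample 2.

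Of the 9 genes for β-catenin partners, 7 were tested, and 2 rose and 2 fell. This was 57.1% of those tested, against 50.1% of all genes. *Ctnna1*, which encodes the α-catenin that links β-catenin to actin, fell from a mean of 10.54 to 10.09 (difference −0.45, adjusted p = 0.00052, limma). *Bcl9*, a coactivator gene, fell from 9.65 to 9.16 (difference −0.50, adjusted p = 0.00027, limma). *Ctnnbip1*, whose product keeps β-catenin from TCF factors, rose from 6.72 to 7.15 (difference 0.43, adjusted p = 0.0075, limma). *Jup*, the plakoglobin gene and closest relative of *Ctnnb1*, rose from 3.63 to 4.17 (difference 0.55, adjusted p = 0.0089, limma) and was barely above the limit on the mean. *Bcl9l* was listed at 0, as were the scaffold paralogs *Amer2* and *Amer3*, and *Apc2* and *Pygo1* lay at the floor of the table near −2.28 in all 6 samples.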

How the data were processed

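RNA-seq libraries of 12 samples in 4 groups of 3 were made by the authors from polyadenylated RNA with a stranded kit and sequenced as paired ends. According to the study's methods, transcripts were quantified with Salmon and reads were aligned with STAR to GRCm38 with GENCODE vM24. Quality control used FastQC 0.11.9, SAMtools 1.7 and Picard 2.23.8, and DESeq2 1.30.1 was used by the authors, per the labels. The deposited table holds log2 values, which the authors named rlog values, for 41444 genes in 12 columns. This transformation corrects for library size and shrinks differences between samples where reads are few. Which samples and options entered it is not given in the sources used here. No counts were used, so no count-based test was made and no interval for counting error can be given.

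Columns were assigned by name to ERT2 control cells (3) and ERT2 cells with LY2090314 (3), and 6 columns were not used. Samples are numbered in column order. Genes with a mean of at least 3 over the 6 samples (11536) entered a linear model per gene in limma 3.58.1 (R 4.3.3), moderated by eBayes with its trend option, and p-values were adjusted over all of them by Benjamini-Hochberg at a threshold of 0.05, with 95% intervals. Single values were also compared by exact two-sided permutation tests. The fit was also run on simulated data in which few genes changed. That setting differs from these data, so no measure of error is drawn from it. Symbols were matched to 41157 identifiers with GENCODE vM21, which also gave positions (GRCm38, the build of the authors), transcript lengths and the degron sequence. Promoter sequences are from RefSeq (GRCm38.p6).

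The 10 members, the pathway lists, the markers, the named genes and the alternatives were chosen with earlier results of these data known. All 10 members are named. Of each other list, every gene (up to 5 genes) or those with the largest rise and fall past the threshold are named, with the others that counts of 5 or fewer call for, together with genes that overlap a member's exons and the 3 genes closest to *Axin2* and to *Ctnnb1*. *Ppp2r1b*, *Ppp2r5b*, *Ppp2r5e*, *Ppp2ca*, *Ppp2cb*, *Siah1b* and *Siah2* were added after their values were seen. The alternatives were no trend, no limit on the mean (genes with the same value in all samples left out) and a limit of 5. Median centring, quantile normalization and leaving out each sample were further alternatives. In another, the treated samples whose column names begin with the same number were counted as 1 sample. The last were a threshold of 0.01 and a minimal log2 difference of 1.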

Additional observations from a re-analysis of the deposited data

How the results depend on the processing

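*Axin2* and *Ctnnb1* passed the threshold in the same direction in all 12 refits, with log2 differences from 1.58 to 1.75 and from −0.38 to −0.34. *Gsk3b* passed in 2, with a limit of 5 on the mean (adjusted p = 0.050, limma) and without treated sample 3. The number of destruction complex genes changed was 2 or 3 in every refit and 1 where a log2 difference of at least 1 was required. This requirement left 693 of the 5778 changed genes overall and 0 of the 19 in the wider pathway, where the largest difference was −0.94. A few differences near 0 changed sign, none past the threshold. With median centring *Axin1* was at −0.0025, and with quantile normalization *Btrc* was at −0.016. With 1 sample left out, *Apc* ranged from −0.12 to 0.14, *Axin1* from −0.0070 to 0.057, *Btrc* from −0.026 to 0.13 and *Amer1* from −0.056 to 0.0024. The change in a gene's log2 difference had a median over all genes of −0.026 with median centring and −0.037 with quantile normalization. The shift of *Fbxw11* minus *Btrc* changed sign, from −0.12 to 0.075 with 1 sample left out and at 0.058 with quantile normalization, which is more than the SD of its control samples. Those of *Axin2* minus *Axin1* (1.55 to 1.70) and *Gsk3b* minus *Gsk3a* (0.0045 to 0.10) stayed above 0. No paired analysis was possible because replicate numbers of the titles cannot be read from the columns. Depth is unknown, so what it limits was not assessed.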
